A study of Mus musculus with 11 samples.

Results

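The collagen and laminin genes of the newborn mouse ovary were compared between mice lacking Sohlh1, mice lacking Sohlh2 and wild-type mice. Both genes code for transcription factors of the basic helix-loop-helix type that act in germ cells. Total RNA of whole ovaries had been hybridized to Illumina MouseWG-6 version 2.0 BeadChips, with 4 arrays of Sohlh1 knockout ovaries (Sohlh1 KO), 3 of Sohlh2 knockout ovaries (Sohlh2 KO) and 4 of wild-type ovaries. All mice were newborns of the strain C57BL/6/129S6/SvEv. The labels name neither the deleted parts of the genes nor a treatment, and do not tell if each replicate was 1 animal or a pool, so p-values measure only the spread between these arrays. The members were all genes whose annotated symbol is that of a collagen chain (Col, a number, a, a number) or of a laminin chain (Lama, Lamb or Lamc and a number), each read from its brightest probe. This gave 50 genes, 41 collagens and 9 laminins, of the 19057 genes with a probe of 1 symbol. Of the 50, 44 had a probe above background on at least 3 of the 11 arrays and were tested among 13350 genes. Those not reaching that limit were Col10a1, Col11a1, Col13a1, Col19a1, Col6a6 and Lama4.

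Collagens are proteins of wound triple helices, and their families differ in the structures they build. Fibrillar collagens form the fibrils of connective tissue, and the FACIT collagens attach to the surface of such fibrils. Type IV collagen and the laminins, which are trimers of an alpha, a beta and a gamma chain, each assemble into a sheet, and the linked sheets are the core of every basement membrane. In the ovary a basement membrane separates the granulosa cells and the oocyte they enclose from the stroma, which holds the fibrillar collagens.

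All levels below are normalized log2 intensities, each difference is a log2 difference of group means with its SE, and a gene is said to have risen or fallen at an adjusted p under 0.05 (limma, Benjamini-Hochberg over all 13350 genes). The tests compared levels of 1 probe between groups, so levels of different genes are not set against each other. In whole-ovary RNA, fewer cells of a type and less RNA per cell cannot be told apart. The arrays lay on 2 chips, chip 1 with Sohlh1 KO 1 and 2 and all wild-type arrays, and chip 2 with Sohlh1 KO 3 and 4 and all Sohlh2 KO arrays. Sohlh1 KO and wild type could therefore also be compared within chip 1, whereas Sohlh2 KO and wild type never shared a chip. Where chip is taken as a block below, the chip difference comes from the Sohlh1 KO arrays alone, 2 on each chip. The Sohlh2 KO values under that block are thus the plain differences from wild type less the chip difference of these Sohlh1 KO arrays. That correction depends wholly on how these Sohlh1 KO arrays differ. Between 45.2% and 52.6% of probes were above background on each array. As a check of the labels, the Sohlh1 probe was lower in both knockouts (log2 differences -2.57 in Sohlh1 KO and -2.56 in Sohlh2 KO), which does not tell the knockouts apart. The faint Sohlh2 probe did not pass the test in Sohlh2 KO (-0.31, adjusted p = 0.284), where it was above background on 0 of 3 arrays against 3 of 4 in wild type. In Sohlh1 KO this Sohlh2 probe was higher than in wild type (0.70, adjusted p = 0.011). Between Sohlh1 KO and Sohlh2 KO it differed by 1.01 without passing (adjusted p = 0.081).

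Of the 44 genes, 12 rose and 5 fell in Sohlh1 KO, and 13 rose and 5 fell in Sohlh2 KO. Among all genes tested, 32.7% passed in Sohlh1 KO (16.3% higher and 16.4% lower) and 25.5% in Sohlh2 KO (12.5% higher and 13.0% lower), so the count of 17 of 44 in Sohlh1 KO lay near that of genes at large. The largest falls were those of the basement membrane chains Col4a4, Lamc3 and Col4a3, and the largest rise was that of the FACIT collagen Col9a3. The median log2 difference of the 44 was 0.19 in Sohlh1 KO and 0.26 in Sohlh2 KO, beside 0.03 and 0.04 over all genes. With the genes that were not above background in a group set to their bound, the median was 0.16 in Sohlh1 KO and 0.26 in Sohlh2 KO. Both knockouts were set against the same 4 wild-type arrays, and the values of each are given side by side. With chip as a block, 12 of the 17 calls in Sohlh1 KO and 7 of the 18 in Sohlh2 KO were kept, and 2 further genes, Col1a1 and Col5a2, rose in both. Without wild type 2 and 3, whose titles carry a letter b of unstated meaning, 9 of the 17 and 9 of the 18 were kept. The calls of Col18a1, Col26a1, Col5a1, Col6a4, Col8a2 and Col9a2 then ended in both knockouts. Those of Col16a1 and Col23a1 ended in Sohlh1 KO, and those of Col27a1, Col5a3 and Lama2 in Sohlh2 KO.

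**Figure D1:**
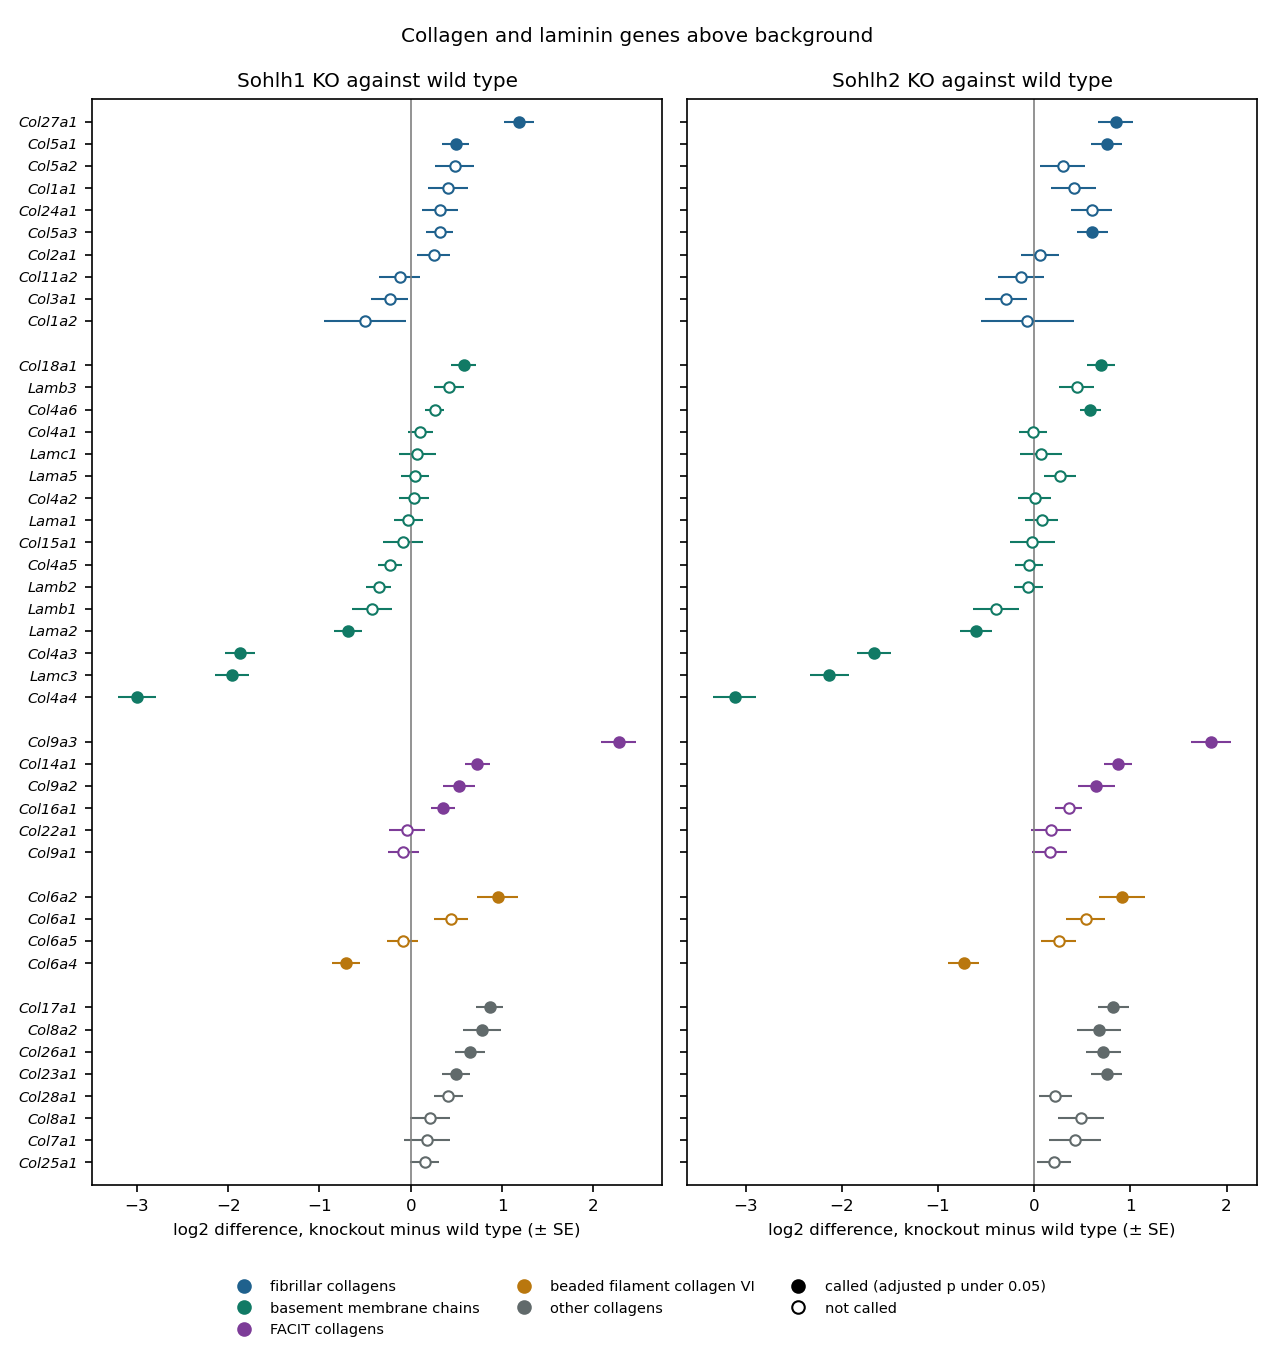
Log2 difference from wild type (knockout minus wild type, horizontal axis) of the 44 collagen and laminin genes in Sohlh1 KO (left) and Sohlh2 KO (right), ordered within each class by the difference in Sohlh1 KO. Points are differences of means with bars of 1 SE, filled where the adjusted p was under 0.05; Col4a4, Lamc3 and Col4a3 lie farthest to the left in both panels and Col9a3 farthest to the right.

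The fibrillar collagens and the basement membrane chains were set against each other first. Of 10 fibrillar collagens, 2 rose and 0 fell in Sohlh1 KO, and 3 rose and 0 fell in Sohlh2 KO, where 16.3% and 12.5% of all genes rose. Of 16 basement membrane chains, 1 rose and 4 fell in Sohlh1 KO, and 2 rose and 4 fell in Sohlh2 KO, where 16.4% and 13.0% of all genes fell. The median difference of the fibrillar collagens was 0.32 in Sohlh1 KO and 0.35 in Sohlh2 KO (0.29 and 0.33 with Col5a3 at its bound). That of the basement membrane chains was -0.06 in Sohlh1 KO and -0.01 in Sohlh2 KO. Array by array, the median deviation of the fibrillar collagens from the wild-type mean was 0.32, 0.48, 0.22 and 0.16 in Sohlh1 KO, 0.19, 0.55 and 0.35 in Sohlh2 KO, and 0.13, -0.06, 0.07 and -0.08 in wild type. By this median every knockout array lay above every wild-type array, though the lowest (0.16) was close to the highest wild-type array (0.13). For the basement membrane chains this median was 0.04, -0.28, -0.01 and -0.21 in Sohlh1 KO, -0.05, 0.06 and -0.06 in Sohlh2 KO, and 0.04, -0.02, 0.04 and -0.07 in wild type, and the groups overlapped. By the mean log2 level of a class, the fibrillar collagens overlapped (8.40 to 8.76 in Sohlh1 KO, 8.53 to 8.71 in Sohlh2 KO and 8.25 to 8.44 in wild type). By that mean the basement membrane chains were lower on every knockout array (8.62 to 8.77, 8.74 to 8.78 and 9.02 to 9.23). This mean was carried by the large falls of Col4a4, Lamc3 and Col4a3. Their differences were -2.996, -1.96 and -1.87 in Sohlh1 KO, and -3.11, -2.13 and -1.67 in Sohlh2 KO. Of the 16 chains, 11 did not pass in Sohlh1 KO and 10 in Sohlh2 KO, so the class as a whole is not described as lower. By the median deviation, the FACIT collagens and the 8 collagens of other types, both described below, also lay higher on every knockout array. Their knockout arrays were at 0.37 to 0.53 and at 0.31 to 0.72. Their wild-type arrays were at -0.12 to 0.22 and at -0.16 to 0.03. The shift was thus not particular to the fibrillar class, though the type VI collagens overlapped. These class values are descriptions without a test, since the genes of a class are not replicates.

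**Figure D2:**
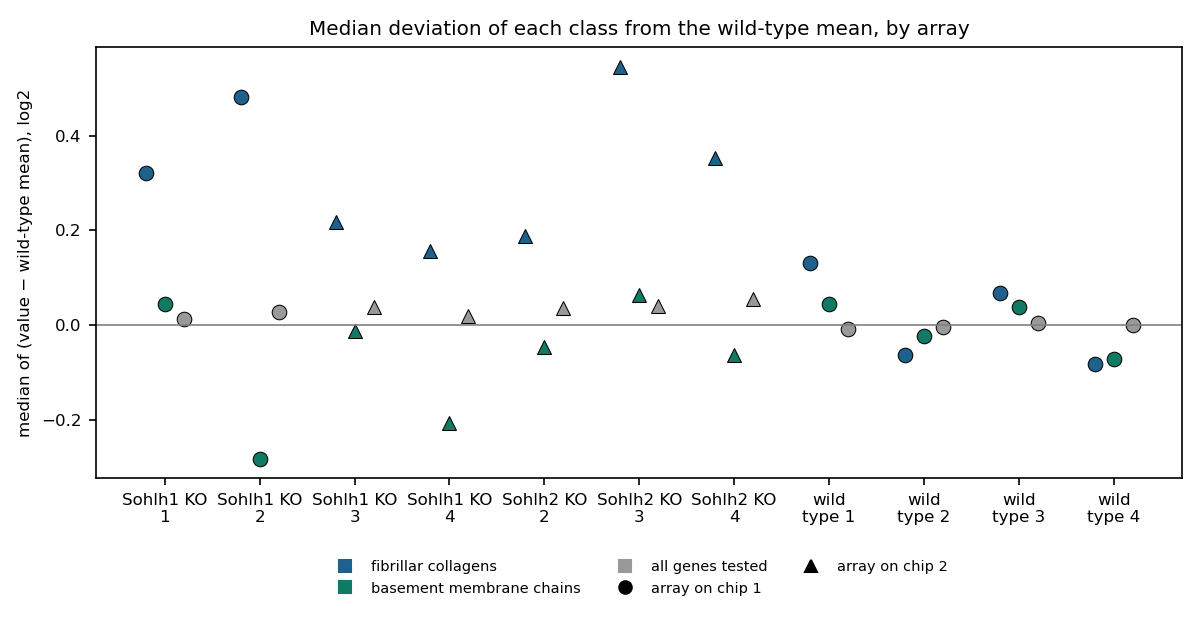
Median deviation from the wild-type mean (log2, vertical axis) of the 10 fibrillar collagens, the 16 basement membrane chains and all 13350 genes on each of the 11 arrays. Circles are arrays on chip 1 and triangles arrays on chip 2; the fibrillar medians of the knockout arrays lie between 0.16 and 0.55, those of the wild-type arrays between -0.08 and 0.13, and the medians of all genes stay near 0.

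Type IV collagen is built from chains that are encoded in head-to-head pairs, so that each pair shares the stretch of DNA between its starts. Chains of Col4a1 and Col4a2 combine in nearly all basement membranes, chains of Col4a3, Col4a4 and Col4a5 combine in specialized ones such as that of the kidney glomerulus, and Col4a5 also combines with Col4a6. In the RefSeq annotation of GRCm38.p6 the genes Col4a3 and Col4a4 on chromosome 1 overlap at their starts by 114 bases, Col4a1 and Col4a2 on chromosome 8 overlap by 85 bases, and Col4a5 and Col4a6 on chromosome X lie 1274 bases apart. The start regions of 1 gene of each pair are shown because the pairs behaved differently on the arrays. Each is 300 bases, from 250 before to 50 after the start that its window is built on, on the minus strand: chr1:82586800-82587099 for Col4a4, chr8:11312777-11313076 for Col4a1 and chrX:141474027-141474326 for Col4a6. Capitals mark the E-box CANNTG, to which basic helix-loop-helix factors bind, the GC box (GGGCGG or CCGCCC) and the CCAAT box (CCAAT or ATTGG), searched on both strands.
Col4a4: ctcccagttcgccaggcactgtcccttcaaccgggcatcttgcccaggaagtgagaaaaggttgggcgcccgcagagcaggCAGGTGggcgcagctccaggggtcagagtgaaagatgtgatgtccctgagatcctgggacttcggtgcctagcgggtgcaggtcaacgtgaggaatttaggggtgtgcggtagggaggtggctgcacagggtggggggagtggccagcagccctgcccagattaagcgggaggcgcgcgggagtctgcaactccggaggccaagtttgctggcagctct
Col4a1: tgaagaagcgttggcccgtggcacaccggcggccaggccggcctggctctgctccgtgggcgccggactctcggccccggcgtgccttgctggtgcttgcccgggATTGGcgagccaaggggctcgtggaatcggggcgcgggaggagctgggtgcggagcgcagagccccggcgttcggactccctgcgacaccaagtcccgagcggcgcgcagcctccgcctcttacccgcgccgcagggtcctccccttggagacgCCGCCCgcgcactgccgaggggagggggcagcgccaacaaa
Col4a6: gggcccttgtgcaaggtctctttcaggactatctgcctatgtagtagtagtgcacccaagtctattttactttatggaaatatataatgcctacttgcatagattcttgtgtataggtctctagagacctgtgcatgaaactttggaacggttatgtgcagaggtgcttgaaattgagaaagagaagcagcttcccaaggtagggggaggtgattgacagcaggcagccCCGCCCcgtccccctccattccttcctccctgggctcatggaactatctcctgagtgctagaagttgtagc
The windows are built on starts that lie 185, 63 and 19 bases inside the outer gene ends behind the overlaps given above, and from the window's start Col4a4 and Col4a3 do not overlap but lie 71 bases apart, while Col4a1 and Col4a2 share 22 bases. The first window also holds the annotated start of Col4a3, and the second that of Col4a2. The Col4a4 window has 1 E-box and neither of the other motifs, the Col4a1 window 1 GC box and 1 CCAAT box, and the Col4a6 window 1 GC box. Of the 32851 RefSeq windows of this length, 72.3% hold an E-box, 35.7% a GC box and 37.4% a CCAAT box, so a match describes the window and shows no binding. Windows were on hand for 38 of the 50 members.

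The Col4a3 and Col4a4 pair fell together in both knockouts. Col4a4 was at 6.27, 5.87, 5.64 and 5.91 in Sohlh1 KO, 5.62, 6.08 and 5.72 in Sohlh2 KO, and 9.49, 8.82, 8.91 and 8.45 in wild type. The groups were far apart, with no knockout array within 2 log2 units of the lowest wild-type array. Col4a4 fell 7.98-fold in Sohlh1 KO and 8.64-fold in Sohlh2 KO, at log2 differences of -2.996 (SE 0.21, adjusted p = 1.6e-07) and -3.11 (SE 0.22, adjusted p = 3.1e-07). The 2 other probes of Col4a4 also fell (-2.25 and -1.41 in Sohlh1 KO, -1.92 and -1.53 in Sohlh2 KO). Col4a3 was at 4.74, 4.57, 4.50 and 5.0 in Sohlh1 KO, 4.79, 5.10 and 4.83 in Sohlh2 KO, and 6.89, 6.74, 6.21 and 6.46 in wild type. All wild-type arrays were above background, against 0 of 4 Sohlh1 KO arrays and 1 of 3 Sohlh2 KO arrays. Col4a3 was therefore at least 2.76-fold lower in Sohlh1 KO (fitted difference -1.87, SE 0.17, adjusted p = 1.8e-06), and it fell in Sohlh2 KO (-1.67, SE 0.18, adjusted p = 1.3e-05). Within chip 1 the differences in Sohlh1 KO were -2.85 for Col4a4 and -1.91 for Col4a3. Without background correction both genes still fell, with -1.73 in Sohlh1 KO and -1.77 in Sohlh2 KO for Col4a4 and -0.63 and -0.55 for Col4a3.

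The pair of the common chains did not pass the test. Col4a1 was at 12.47, 12.14, 12.48 and 12.12 in Sohlh1 KO, 12.15, 12.25 and 12.16 in Sohlh2 KO, and 12.13, 12.06, 12.46 and 12.13 in wild type. Col4a2 was at 11.33, 10.69, 11.03 and 10.97 in Sohlh1 KO, 10.92, 11.01 and 11.01 in Sohlh2 KO, and 10.79, 10.97, 11.36 and 10.77 in wild type. The arrays of all groups overlapped for both genes. The differences of Col4a1 were 0.11 (SE 0.13) in Sohlh1 KO and -0.01 (SE 0.14) in Sohlh2 KO, and those of Col4a2 were 0.03 (SE 0.16) and 0.01 (SE 0.17). Col4a6 rose in Sohlh2 KO, where it was at 8.06, 8.04 and 8.08, against 7.58, 7.39, 7.49 and 7.44 in wild type (difference 0.59, SE 0.11, adjusted p = 0.0017). In Sohlh1 KO it was at 7.66, 7.65, 7.83 and 7.80, above all wild-type arrays, and did not pass (0.26, adjusted p = 0.067). The call in Sohlh2 KO ended under the chip block (0.42, adjusted p = 0.145), and without background correction the rise was 0.37. Of its 2 other probes, 1 also rose in Sohlh2 KO (0.46) and 1 did not pass (0.15). Col4a5 did not pass by its brightest probe (-0.23 in Sohlh1 KO and -0.05 in Sohlh2 KO), whereas its other probe rose (0.43, adjusted p over probes = 0.0125, and 0.61, adjusted p over probes = 0.0028). Which probe reads the gene better was not tested.

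**Figure D3:**
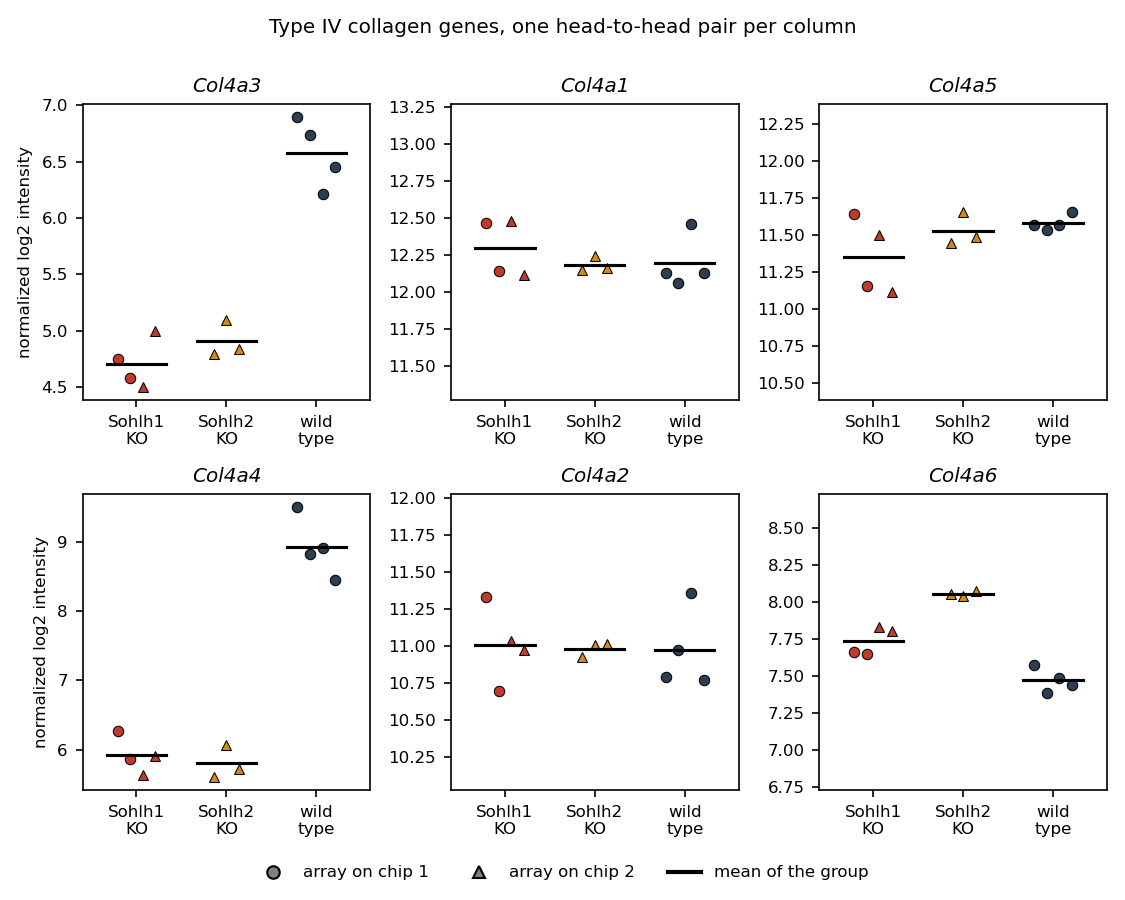
Normalized log2 intensity (vertical axis, with its own range in each panel) of the 6 type IV collagen genes in Sohlh1 KO, Sohlh2 KO and wild-type ovaries, with 1 gene pair in each column. Points are arrays (circles on chip 1, triangles on chip 2) and lines are group means; the knockout arrays lie below all wild-type arrays for Col4a3 and Col4a4, overlap them for Col4a1, Col4a2 and Col4a5, and lie above them for Col4a6.

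Among the laminins, 2 of the 8 genes tested fell in each knockout and 0 rose, where 16.4% and 13.0% of all genes fell, so the count is too small to set the laminins apart. Lamc3, a gamma chain, was at 4.93, 5.67, 5.69 and 5.60 in Sohlh1 KO, 5.14, 5.06 and 5.70 in Sohlh2 KO, and 7.41, 7.51, 7.53 and 7.27 in wild type. It was above background on 3 of 4 Sohlh1 KO arrays, 1 of 3 Sohlh2 KO arrays and all wild-type arrays, and the knockout arrays lay well below the wild-type ones. Lamc3 fell 3.88-fold in Sohlh1 KO and 4.37-fold in Sohlh2 KO, at log2 differences of -1.96 (SE 0.19, adjusted p = 3.6e-06) and -2.13 (SE 0.20, adjusted p = 4.4e-06). Without background correction the differences were -0.82 in Sohlh1 KO and -0.87 in Sohlh2 KO. Lama2, the alpha chain of muscle and nerve basement membranes, was at 7.32, 7.70, 7.60 and 7.09 in Sohlh1 KO, 7.67, 7.51 and 7.37 in Sohlh2 KO, and 8.40, 8.04, 7.995 and 8.04 in wild type. No knockout array reached the lowest wild-type array. Lama2 fell 1.61-fold in Sohlh1 KO and 1.52-fold in Sohlh2 KO, at log2 differences of -0.69 (SE 0.15, adjusted p = 0.0039) and -0.60 (SE 0.17, adjusted p = 0.018). Without background correction its differences were -0.44 in Sohlh1 KO and -0.39 in Sohlh2 KO. Within chip 1 the difference in Sohlh1 KO was -0.61, which also passed when chip was a block (adjusted p = 0.033). In Sohlh2 KO it failed with that block (-0.44, adjusted p = 0.353) and without wild type 1, Sohlh2 KO 3 or Sohlh2 KO 4, the difference ranging from -0.68 to -0.51 over the 11 arrays left out in turn.

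The other laminin genes above background did not pass in either knockout. Lamc1, the gamma chain of most laminins, differed by 0.07 (SE 0.20) in Sohlh1 KO and by 0.07 (SE 0.22) in Sohlh2 KO. The alpha chains Lama1 and Lama5 differed by -0.03 and 0.05 in Sohlh1 KO and by 0.08 and 0.27 in Sohlh2 KO. The beta chains Lamb1, Lamb2 and Lamb3 differed by -0.42, -0.35 and 0.42 in Sohlh1 KO and by -0.39, -0.06 and 0.44 in Sohlh2 KO. For Lamb3, a chain of epithelial anchoring laminin, the adjusted p was 0.069 in Sohlh1 KO and 0.088 in Sohlh2 KO. The 2 remaining basement membrane collagens differed from each other. Col18a1, whose end fragment is endostatin, was at 12.78, 13.32, 13.06 and 13.12 in Sohlh1 KO, 13.05, 13.29 and 13.22 in Sohlh2 KO, and 12.65, 12.39, 12.33 and 12.60 in wild type. It rose by 0.58 in Sohlh1 KO (SE 0.14, adjusted p = 0.0058) and by 0.70 in Sohlh2 KO (SE 0.15, adjusted p = 0.0037), with every knockout array above every wild-type array, and its other probe rose too (1.07 and 0.77). Without wild type 2 and 3 the rise did not pass (adjusted p = 0.103 in Sohlh1 KO and 0.0672 in Sohlh2 KO), nor in Sohlh2 KO with chip as a block (0.66, adjusted p = 0.114). Col15a1 differed by -0.09 in Sohlh1 KO and by -0.02 in Sohlh2 KO.

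**Figure D4:**
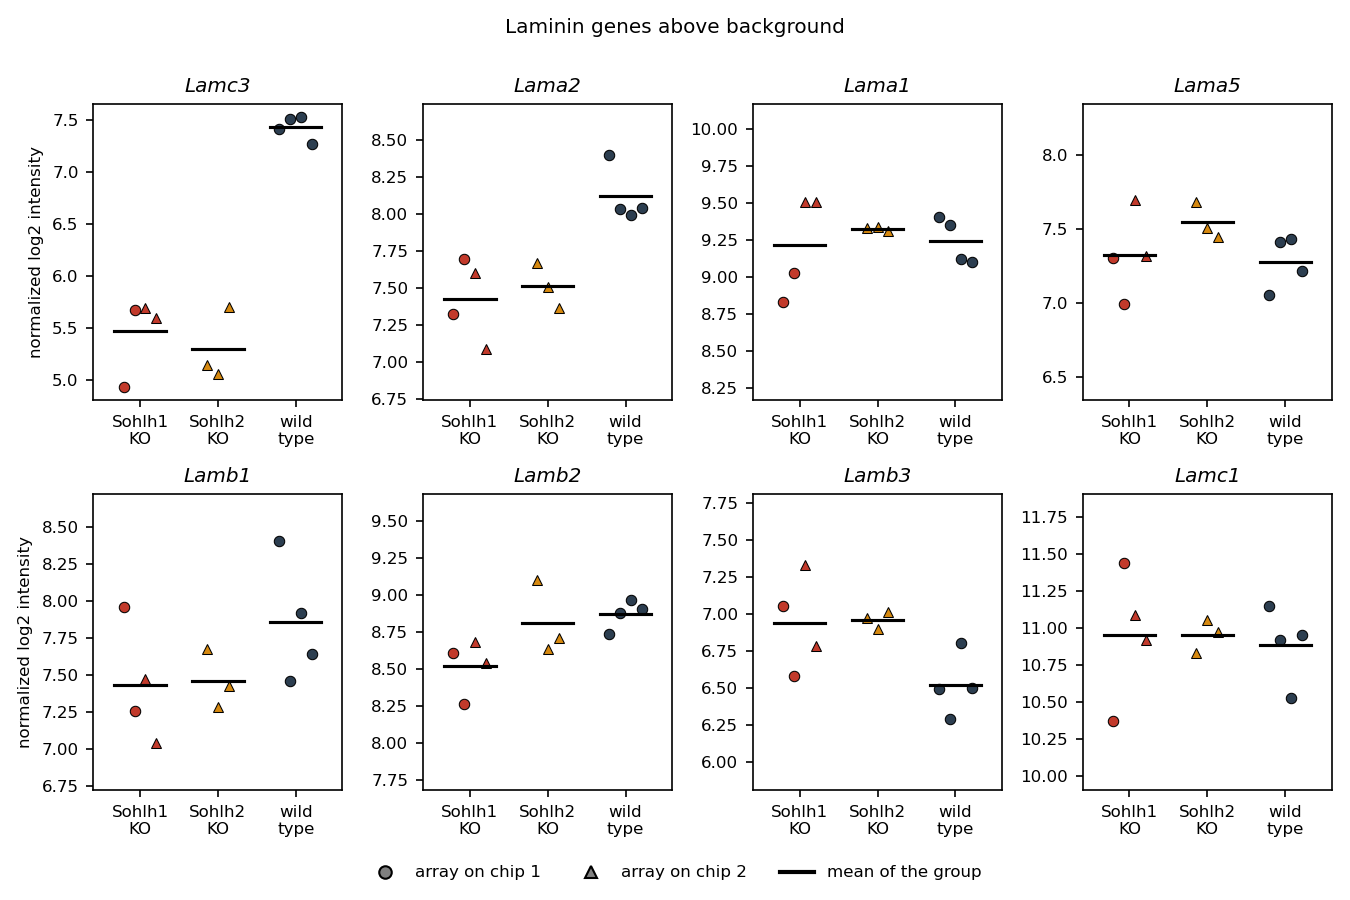
Normalized log2 intensity (vertical axis, with its own range in each panel) of the 8 laminin genes above background in Sohlh1 KO, Sohlh2 KO and wild-type ovaries. Points are arrays (circles on chip 1, triangles on chip 2) and lines are group means; the knockout arrays lie below all wild-type arrays for Lamc3 and Lama2, while for Lama1, Lama5, Lamb1, Lamb2, Lamb3 and Lamc1 the arrays of at least 1 knockout overlap those of wild type.

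Among the fibrillar collagens, the genes of the main fibrils did not pass the test. Col1a1, of type I collagen, was at 12.48, 12.02, 11.71 and 11.33 in Sohlh1 KO, 11.78, 12.10 and 11.79 in Sohlh2 KO, and 11.24, 11.51, 11.84 and 11.31 in wild type. Col1a2, its partner chain, was at 9.50, 11.18, 9.59 and 8.65 in Sohlh1 KO, 10.17, 9.77 and 10.56 in Sohlh2 KO, and 10.75, 10.06, 10.74 and 9.39 in wild type. Col3a1, of type III collagen, was at 12.66, 12.65, 12.01 and 11.72 in Sohlh1 KO, 12.08, 12.43 and 12.08 in Sohlh2 KO, and 12.61, 12.33, 12.65 and 12.36 in wild type. The Sohlh1 KO arrays were spread more widely than the others for all 3 genes. The differences were 0.41 (SE 0.22, adjusted p = 0.174) for Col1a1, -0.50 (SE 0.45, adjusted p = 0.429) for Col1a2 and -0.23 (SE 0.20, adjusted p = 0.429) for Col3a1 in Sohlh1 KO. In Sohlh2 KO they were 0.41 (SE 0.24), -0.07 (SE 0.49) and -0.29 (SE 0.22). The other probe of Col3a1 had the opposite sign (0.16 in Sohlh1 KO and 0.10 in Sohlh2 KO) and did not pass either.

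Part of this spread ran along the chips. In Sohlh1 KO, the mean of the arrays on chip 2 was lower than that on chip 1 by 0.72 for Col1a1, by 1.22 for Col1a2, by 0.80 for Col3a1 and by 0.77 for Col5a2, a type V chain. For Col1a2 the chips overlapped. Its Sohlh1 KO 2 was far highest (11.18), and Sohlh1 KO 3 on chip 2 (9.59) lay above Sohlh1 KO 1 on chip 1 (9.50). Over the 10 fibrillar collagens the median of the chip 2 minus chip 1 difference was -0.23, and 7 were lower on chip 2, beside medians of 0.07 for the basement membrane chains and 0.01 for all genes. Each chip held 2 Sohlh1 KO arrays, so chip and the difference between arrays cannot be told apart. The Sohlh2 KO values with chip as a block are corrected by this same split. With chip as a block, Col1a1 rose by 0.77 in Sohlh1 KO (adjusted p = 0.016) and by 1.14 in Sohlh2 KO (adjusted p = 0.028), and Col5a2 rose by 0.86 (adjusted p = 0.0048) and by 1.06 (adjusted p = 0.023). The differences of Col1a2 and Col3a1 then turned to 0.11 and 0.17 in Sohlh1 KO and to 1.15 and 0.51 in Sohlh2 KO, without passing.

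The minor fibrillar chains held the called rises. Col27a1, a fibrillar collagen of cartilage, was at 7.35, 6.84, 7.16 and 7.01 in Sohlh1 KO, 7.11, 6.45 and 6.68 in Sohlh2 KO, and 6.06, 5.80, 5.68 and 6.05 in wild type. Every knockout array was above every wild-type array. Col27a1 rose 2.28-fold in Sohlh1 KO and 1.80-fold in Sohlh2 KO, at log2 differences of 1.19 (SE 0.16, adjusted p = 0.0001) and 0.85 (SE 0.18, adjusted p = 0.0035). The rise in Sohlh1 KO was 1.19 within chip 1 also, and without background correction it was 0.51 in Sohlh1 KO and 0.34 in Sohlh2 KO. A second probe of Col27a1 did not show it (0.01 in Sohlh1 KO and -0.08 in Sohlh2 KO), and in Sohlh2 KO the call ended under the chip block (0.86, adjusted p = 0.0904) and without wild type 2 and 3 (adjusted p = 0.0612). Col5a1, which starts the assembly of type I fibrils, was at 12.66, 12.59, 13.09 and 13.01 in Sohlh1 KO, 12.93, 13.34 and 13.02 in Sohlh2 KO, and 12.47, 12.11, 12.34 and 12.44 in wild type. The arrays of the knockouts were again all above those of wild type. Col5a1 rose 1.41-fold in Sohlh1 KO and 1.69-fold in Sohlh2 KO, at log2 differences of 0.49 (SE 0.15, adjusted p = 0.023) and 0.76 (SE 0.16, adjusted p = 0.004). Neither difference passed under the chip block (0.28 in Sohlh1 KO and 0.34 in Sohlh2 KO), and the call in Sohlh1 KO also ended without wild type 2, Sohlh1 KO 3 or Sohlh1 KO 4 (0.41 to 0.57). Col5a3 was above background on 3 of 4 Sohlh1 KO arrays, all Sohlh2 KO arrays and 0 wild-type arrays. It was at least 1.29-fold higher in Sohlh2 KO (adjusted p = 0.014), and did not pass in Sohlh1 KO (adjusted p = 0.125). Its call in Sohlh2 KO ended without background correction (0.18), without Sohlh2 KO 3 and under the chip block (adjusted p = 0.107). Col24a1 and the faint Col2a1 and Col11a2 did not pass in either knockout, though the other probe of Col24a1 rose (0.53, adjusted p over probes = 0.029, and 0.99, adjusted p over probes = 0.0014).

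**Figure D5:**
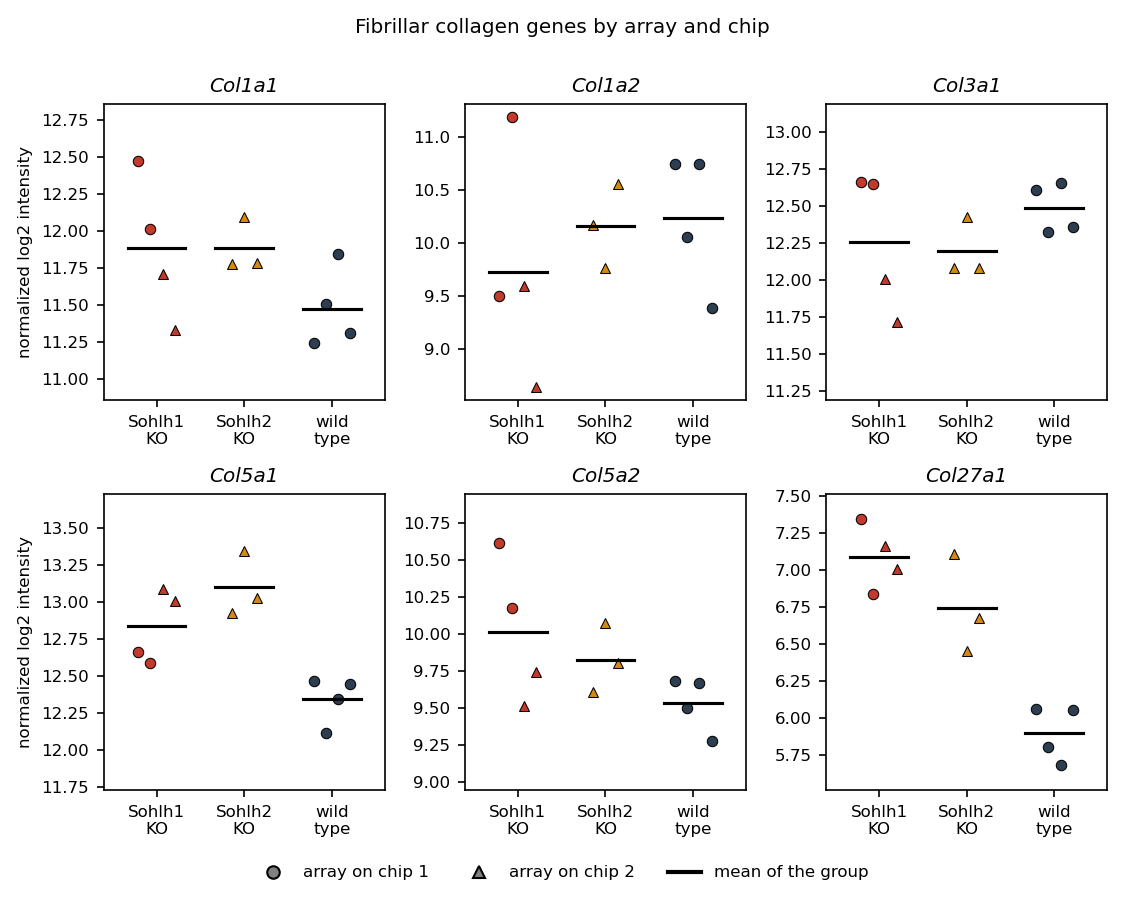
Normalized log2 intensity (vertical axis, with its own range in each panel) of 6 fibrillar collagen genes in Sohlh1 KO, Sohlh2 KO and wild-type ovaries. Points are arrays (circles on chip 1, triangles on chip 2) and lines are group means; in Sohlh1 KO the chip 2 arrays of Col1a1, Col3a1 and Col5a2 lie below its chip 1 arrays, and all knockout arrays of Col5a1 and Col27a1 lie above the wild-type arrays.

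Of 6 FACIT collagens, 4 rose in Sohlh1 KO and 3 in Sohlh2 KO, where 16.3% and 12.5% of all genes rose, and 0 fell. Col9a3, a type IX chain that in cartilage coats type II fibrils, was at 9.20, 9.36, 8.74 and 8.44 in Sohlh1 KO, 8.36, 8.59 and 8.54 in Sohlh2 KO, and 6.85, 6.59, 6.35 and 6.85 in wild type. The lowest knockout array was over 1 log2 unit above the highest wild-type array. Col9a3 rose 4.84-fold in Sohlh1 KO and 3.58-fold in Sohlh2 KO, at log2 differences of 2.28 (SE 0.19, adjusted p = 1.1e-06) and 1.84 (SE 0.21, adjusted p = 2.3e-05). Within chip 1 the rise in Sohlh1 KO was 2.62, and without background correction it was 1.46 in Sohlh1 KO and 1.11 in Sohlh2 KO. Its partner chain Col9a2 was at 10.79, 10.11, 10.58 and 10.35 in Sohlh1 KO, 10.88, 10.19 and 10.65 in Sohlh2 KO, and 9.72, 9.92, 10.13 and 9.94 in wild type. The rise of Col9a2 was smaller, 0.53 in Sohlh1 KO (adjusted p = 0.036) and 0.64 in Sohlh2 KO (adjusted p = 0.026), and it did not pass when chip was a block (adjusted p = 0.11 and 0.254). The call also ended in Sohlh1 KO without wild type 1, 2 or 4 or Sohlh1 KO 1 or 3, and in Sohlh2 KO without wild type 1 or 2 or Sohlh2 KO 2 or 4. The third chain, Col9a1, was faint and did not pass (-0.08 and 0.16), nor did Col2a1, of the type II fibrils (0.25 and 0.06). Of 5 other genes of cartilage and bone, 4 fell in Sohlh1 KO, 2 fell in Sohlh2 KO and 0 rose in either. Over all genes, 16.4% and 13.0% fell. The mean log2 level of the 5 was 5.95 to 6.14 in Sohlh1 KO, 6.23 to 6.37 in Sohlh2 KO and 6.82 to 6.91 in wild type. This list lies near background, with 2 of the 5 genes above it on all arrays. Ibsp was above background on 0 arrays of either knockout, and Matn1 on 0 arrays in Sohlh1 KO.

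Col14a1, a FACIT collagen of type I fibrils, was at 8.89, 8.71, 8.84 and 8.84 in Sohlh1 KO, 8.78, 9.21 and 8.90 in Sohlh2 KO, and 7.90, 7.996, 8.39 and 8.08 in wild type. All knockout arrays exceeded the wild-type ones. Col14a1 rose 1.66-fold in Sohlh1 KO and 1.83-fold in Sohlh2 KO, at log2 differences of 0.73 (SE 0.14, adjusted p = 0.0012) and 0.87 (SE 0.15, adjusted p = 0.00068). A second probe rose by 0.97 in Sohlh1 KO and by 1.17 in Sohlh2 KO. Col16a1 rose by 0.35 in Sohlh1 KO with an adjusted p just under the limit (0.0493), a call that held in 9 of 24 alternatives and, among single arrays left out, only without Sohlh1 KO 1, and differed by 0.36 in Sohlh2 KO (adjusted p = 0.076).

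Type VI collagen forms beaded filaments around cells, and its genes moved in both directions. Col6a2 was at 12.21, 11.26, 11.87 and 11.13 in Sohlh1 KO, 11.75, 11.51 and 11.47 in Sohlh2 KO, and 10.52, 10.52, 11.08 and 10.55 in wild type. The knockout arrays lay above all wild-type arrays, of which wild type 3 was highest. Col6a2 rose 1.94-fold in Sohlh1 KO and 1.88-fold in Sohlh2 KO, at log2 differences of 0.95 (SE 0.22, adjusted p = 0.0055) and 0.91 (SE 0.24, adjusted p = 0.014). A second probe rose by 0.56 in Sohlh1 KO and by 0.80 in Sohlh2 KO, while the call in Sohlh2 KO ended under the chip block (1.15, adjusted p = 0.0876) and without Sohlh2 KO 2. Its partner Col6a1 did not pass (0.44, adjusted p = 0.092, and 0.54, adjusted p = 0.072), though in Sohlh2 KO 1 of its 2 other probes rose (0.70). Col6a4 was at 5.25, 4.75, 4.81 and 4.998 in Sohlh1 KO, 4.95, 4.88 and 4.94 in Sohlh2 KO, and 5.33, 5.61, 5.97 and 5.73 in wild type. It was above background on 1 of 4 Sohlh1 KO arrays, 0 of 3 Sohlh2 KO arrays and all wild-type arrays. It fell by 0.71 in Sohlh1 KO (SE 0.15, adjusted p = 0.0031) and was at least 1.43-fold lower in Sohlh2 KO (adjusted p = 0.0053). Under the chip block it did not pass in Sohlh2 KO (-0.64, adjusted p = 0.165). Without wild type 2 and 3 neither knockout passed (adjusted p = 0.0509 and 0.065), and without background correction the differences were -0.20 and -0.21.

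Of the 8 other collagens tested, 4 rose in each knockout and 0 fell, where 16.3% and 12.5% of all genes rose. Col17a1, a transmembrane collagen of the hemidesmosomes that fix epithelial cells to the basement membrane, was at 7.72, 8.17, 7.99 and 7.64 in Sohlh1 KO, 7.74, 8.003 and 7.78 in Sohlh2 KO, and 7.30, 7.003, 6.84 and 6.92 in wild type. The groups did not overlap. Col17a1 rose 1.82-fold in Sohlh1 KO and 1.77-fold in Sohlh2 KO, at log2 differences of 0.87 (SE 0.15, adjusted p = 0.00059) and 0.83 (SE 0.16, adjusted p = 0.002). Its 2 other probes rose by 1.10 and 0.80 in Sohlh1 KO, and in Sohlh2 KO 1 of them rose by 0.84 and the other did not pass (0.52). Without background correction the brightest probe rose by 0.51 in Sohlh1 KO and by 0.48 in Sohlh2 KO. Col8a2, of the network-forming type VIII collagen, rose by 0.78 in Sohlh1 KO (adjusted p = 0.012) and by 0.68 in Sohlh2 KO (adjusted p = 0.043), and by 1.10 and 1.32 with chip as a block. Its call in Sohlh2 KO ended without wild type 1, 2 or 4, without Sohlh1 KO 2 and without any of the Sohlh2 KO arrays, the difference ranging over 0.58 to 0.76. Col23a1, a transmembrane collagen, rose by 0.49 in Sohlh1 KO (adjusted p = 0.025) and by 0.75 in Sohlh2 KO (adjusted p = 0.0044). Col26a1, known from mouse testis and ovary, rose by 0.65 in Sohlh1 KO (adjusted p = 0.0089) and by 0.72 in Sohlh2 KO (adjusted p = 0.0097). Neither passed with chip as a block in either knockout (0.28 and 0.32 for Col23a1, 0.52 and 0.46 for Col26a1), and a second probe of Col26a1 gave 0.19 and -0.02. The call of Col23a1 in Sohlh1 KO also ended without wild type 1 or 2 or Sohlh1 KO 3. Col7a1, of anchoring fibrils, Col8a1, Col25a1 and Col28a1 did not pass.

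The knockouts were then compared directly. In Sohlh1 KO against Sohlh2 KO, 0 of the 44 genes passed by limma and 1, Col4a6, had an unadjusted p under 0.05, beside 5 of 13350 genes (0.0375%, with 0.0300% higher and 0.00749% lower) past the adjusted limit. This count was 0 in every alternative run. The largest difference was that of Col9a3, 0.44 with a 95% interval from -0.01 to 0.89 (adjusted p = 0.613). For Col4a6 it was -0.32 (interval -0.56 to -0.08, adjusted p = 0.382), for Col4a4 0.12 (-0.37 to 0.60) and for Lamc3 0.17 (-0.27 to 0.61). These intervals allow differences of a size that passed against wild type for other members, so the missing calls do not show that the knockouts are alike.

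Genes that act on collagens after translation were followed in a list of 23 tested genes. Of these, 7 rose and 1 fell in Sohlh1 KO, and 8 rose and 0 fell in Sohlh2 KO (median difference 0.12 and 0.23). The 8 calls of 23 in each knockout stand beside the 32.7% and 25.5% of all genes that passed, and in Sohlh1 KO the count lies near that share. The counts of the lists that follow stand beside the same shares. Those of receptors and proteases lie near them, as does that of the other basement membrane proteins in Sohlh2 KO. P3h1, the prolyl hydroxylase of the complex that modifies fibrillar chains, was at 8.72, 8.32, 8.61 and 8.62 in Sohlh1 KO, 8.55, 8.51 and 8.57 in Sohlh2 KO, and 7.70, 7.28, 7.69 and 7.54 in wild type. It rose by 1.01 in Sohlh1 KO (adjusted p = 5.5e-05) and by 0.99 in Sohlh2 KO (adjusted p = 0.00017), and Crtap, its partner in that complex, rose by 0.44 in Sohlh1 KO (adjusted p = 0.009) and by 0.42 in Sohlh2 KO (adjusted p = 0.021). Lox, which starts collagen crosslinks, was at 11.78, 11.38, 11.46 and 11.20 in Sohlh1 KO, 11.37, 11.53 and 11.40 in Sohlh2 KO, and 10.68, 10.41, 10.91 and 10.60 in wild type. It rose by 0.81 in Sohlh1 KO (adjusted p = 0.00089) and by 0.78 in Sohlh2 KO (adjusted p = 0.0025). The related Loxl1 rose by 0.53 in Sohlh1 KO and by 0.68 in Sohlh2 KO, and P3h4 rose by 0.61 in Sohlh2 KO. Under the chip block the Sohlh2 KO calls of Crtap (adjusted p = 0.201), Loxl1 (adjusted p = 0.0797) and P3h4 (0.26, adjusted p = 0.511) ended.

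Of 16 other basement membrane proteins, 6 rose and 1 fell in Sohlh1 KO, and 5 rose and 0 fell in Sohlh2 KO (median 0.17 and 0.25). Fras1, an epithelial basement membrane protein, was at 6.85, 6.37, 6.48 and 6.97 in Sohlh1 KO, 6.20, 6.61 and 6.29 in Sohlh2 KO, and 5.37, 5.52, 5.58 and 5.39 in wild type. Nid2, a nidogen that links laminin to type IV collagen, was at 10.73, 10.75, 10.62 and 10.80 in Sohlh1 KO, 10.87, 11.05 and 10.93 in Sohlh2 KO, and 10.31, 10.22, 10.14 and 10.34 in wild type. Both genes had all knockout arrays above all wild-type arrays. Fras1 rose by 1.20 in Sohlh1 KO (adjusted p = 5e-05) and by 0.90 in Sohlh2 KO (adjusted p = 0.0013), and Nid2 by 0.47 (adjusted p = 0.0039) and 0.70 (adjusted p = 0.00052). Fbln2, a fibulin, rose by 0.87 in Sohlh1 KO and by 1.27 in Sohlh2 KO, and Papln by 0.65 and 0.83. The chip block ended the call of Fras1 in Sohlh2 KO (0.79, adjusted p = 0.0884) and those of Papln in Sohlh1 KO (0.39, adjusted p = 0.231) and in Sohlh2 KO (0.30, adjusted p = 0.616). The single falls of these lists in Sohlh1 KO, named after their values were seen, were those of the lysyl hydroxylase Plod2 (-0.67) and of the perlecan gene Hspg2 (-0.43), of which that of Plod2 ended under the chip block (-0.29, adjusted p = 0.311).

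Of 12 collagen and laminin receptors, 2 rose and 1 fell in Sohlh1 KO, and 3 rose and 0 fell in Sohlh2 KO (median -0.01 in both). Itgb4, the integrin chain of hemidesmosomes, was at 7.38, 8.52, 8.81 and 8.66 in Sohlh1 KO, 8.82, 8.74 and 8.88 in Sohlh2 KO, and 9.52, 9.58, 9.05 and 9.31 in wild type. It fell by 1.02 in Sohlh1 KO (adjusted p = 0.0084), where replicate 1 was lowest, and did not pass in Sohlh2 KO (-0.55), where it passed under the chip block (-1.33, adjusted p = 0.038). The collagen receptor Itga11 rose by 0.61 in Sohlh1 KO and by 0.69 in Sohlh2 KO, the laminin receptor Itga7 by 0.47 and 0.44, and Itga3 rose by 0.43 in Sohlh2 KO. None of these 3 rises in Sohlh2 KO passed under the chip block (adjusted p = 0.104 for Itga11, 0.175 for Itga7 and 0.533 for Itga3, the last at 0.26).

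Of 14 matrix proteases and inhibitors, 2 rose and 2 fell in Sohlh1 KO, and 3 rose and 2 fell in Sohlh2 KO (median 0.28 and 0.10). Timp4, an inhibitor of matrix metalloproteinases, was at 4.81, 4.81, 4.74 and 4.71 in Sohlh1 KO, 4.95, 4.90 and 5.03 in Sohlh2 KO, and 7.77, 8.35, 7.51 and 7.80 in wild type. It was above background on 0 arrays of either knockout and all wild-type arrays, and was at least 6.72-fold lower in Sohlh1 KO (adjusted p = 6.6e-09) and at least 6.57-fold lower in Sohlh2 KO (adjusted p = 3.4e-08). Mmp13, a collagenase, fell in both knockouts (-1.16 in Sohlh1 KO and -1.26 in Sohlh2 KO). It was above background on only 2 of 4 Sohlh1 KO arrays and 1 of 3 Sohlh2 KO arrays, so the size of its falls is uncertain. Mmp11 rose by 0.85 and 0.83, and the membrane-bound Mmp16 by 0.53 and 0.73, the call of Mmp16 in Sohlh2 KO ending under the chip block (adjusted p = 0.0824). That block took the fall of Mmp13 in Sohlh2 KO to -2.04.

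Of 14 small proteoglycans and other fibrous matrix genes, 3 rose and 3 fell in each knockout (median 0.09 and 0.19). Omd, a small proteoglycan described in bone, was at 5.27, 5.11, 4.99 and 5.23 in Sohlh1 KO, 5.50, 4.57 and 4.74 in Sohlh2 KO, and 7.75, 7.57, 7.14 and 7.33 in wild type. It fell in Sohlh1 KO (-2.29, adjusted p = 1.2e-06) and in Sohlh2 KO (-2.51, adjusted p = 1.4e-06). Omd was above background on only 2 of 4 Sohlh1 KO arrays and 1 of 3 Sohlh2 KO arrays, so the size of these falls is uncertain. The related Ogn fell too (-1.05 and -1.22), and Prelp, which binds basement membranes, fell by 1.04 in Sohlh1 KO and by 0.77 in Sohlh2 KO. Thbs2, a thrombospondin of the matrix, rose by 0.86 in Sohlh1 KO and by 0.87 in Sohlh2 KO, and the elastin gene Eln rose by 0.57 in Sohlh1 KO and by 0.65 in Sohlh2 KO. The chip block ended the Sohlh2 KO calls of Prelp (adjusted p = 0.0787), Thbs2 (0.69, adjusted p = 0.112) and Eln (0.49, adjusted p = 0.326), and that of Eln in Sohlh1 KO (0.49, adjusted p = 0.0959).

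Markers of other cells of the ovary and its surroundings moved with these groups. The mean log2 level of 7 markers of oviduct and multiciliated cells was 6.60 to 6.73 in Sohlh1 KO, 6.75 to 6.91 in Sohlh2 KO and 8.54 to 8.94 in wild type, and 6 and 5 of them fell. In this list Dnah5 was above background on 0 arrays of either knockout, and Ccdc39 on 0 of 3 in Sohlh2 KO. For 7 fat markers it was 5.92 to 6.19 in Sohlh1 KO, 6.09 to 6.15 in Sohlh2 KO and 7.55 to 7.89 in wild type, and 4 fell and 1 rose in each knockout. Fabp4 was above background on 0 arrays of either knockout, Cidea on 0 of 4 in Sohlh1 KO, and Adipoq and Plin1 on 0 of 3 in Sohlh2 KO.

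For 9 smooth muscle and pericyte markers the mean level was 8.43 to 8.91 in Sohlh1 KO, 8.74 to 8.88 in Sohlh2 KO and 9.18 to 9.68 in wild type, with 4 of 9 lower and 2 higher in Sohlh1 KO, and 3 lower and 1, Notch3, higher in Sohlh2 KO (0.78, adjusted p = 0.012). For 7 germ cell and oocyte markers it was 8.03 to 8.78 in Sohlh1 KO, 7.90 to 8.20 in Sohlh2 KO and 9.52 to 9.64 in wild type. Of these, 2 fell and 2 rose in Sohlh1 KO, and 4 fell and 1 rose in Sohlh2 KO. The largest falls were those of Gdf9 (-6.13 in Sohlh1 KO and -6.03 in Sohlh2 KO) and Zp3 (-5.99 and -5.62). Dazl rose in both (2.00 and 1.51) and Ddx4 in Sohlh1 KO (1.47), and the median difference of the list was -0.27 and -0.81. By their mean level, the oviduct, fat, smooth muscle, germ cell and, as given above, cartilage and bone lists were thus each lower on every knockout array than on any wild-type array. Such a mean follows the largest differences of a list. In the germ cell list these were the falls of Gdf9 and Zp3, while in Sohlh1 KO its other members rose or did not pass. For 7 blood markers the mean level was 9.05 to 12.39 in Sohlh1 KO, 8.56 to 10.42 in Sohlh2 KO and 7.48 to 7.97 in wild type. For 7 markers of ovarian stroma, Col1a1 among them, the level overlapped between groups, at 10.46 to 10.71 in Sohlh1 KO, 10.56 to 10.77 in Sohlh2 KO and 10.57 to 10.92 in wild type. For 7 markers of the ovarian surface it was 9.39 to 9.75 in Sohlh1 KO, 9.54 to 9.74 in Sohlh2 KO and 9.07 to 9.43 in wild type. For 7 endothelial markers, of which 4 rose in Sohlh1 KO and 1 in Sohlh2 KO, it was 8.61 to 8.77 in Sohlh1 KO, 8.41 to 8.66 in Sohlh2 KO and 8.20 to 8.47 in wild type. For 11 pregranulosa and granulosa markers, the cells that border the basement membrane of the follicle, it overlapped, at 7.44 to 7.74 in Sohlh1 KO, 7.46 to 7.56 in Sohlh2 KO and 7.59 to 7.72 in wild type, and 10 were above background on every array. Within this list 4 rose and 2 fell in each knockout. Hsd17b1, a steroid enzyme of granulosa cells, differed by -4.61 in Sohlh1 KO and -4.47 in Sohlh2 KO, and the estrogen receptor gene Esr2 by -2.43 and -2.34. The transcription factor gene Irx3 rose by 2.05 in Sohlh1 KO and by 1.90 in Sohlh2 KO, and the pregranulosa marker Lgr5 by 1.40 and 1.59. What part any of these cells had in the collagen and laminin differences was not tested.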

How the data were processed

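Total RNA of newborn ovaries was labelled with biotin and hybridized to 1 Illumina array per sample, per the labels' protocols, and the arrays were read with BeadStudio 3.2, per the submitters' processing notes. The deposited table held linear intensity without detection p-values or control probes. It proved quantile normalized already, since arrays differed by at most 11.2 units at the same rank, and the authors' deposited log2 matrix held the same values. Since detection p-values were lacking, 1276 olfactory receptor probes stood in for negative controls in the normexp correction (offset 16), then quantile normalization and the log2 step. Background was set at the 95th percentile of these probes (149.3 to 158.9 intensity units); a probe over it was above background, and was kept with at least 3 such arrays, leaving 13350 genes by their brightest probe. A model of the group means over all 11 arrays, with 8 residual degrees of freedom, was run in limma 3.58.1 and statmod 1.5.0 (R 4.3.3) and tested on simulated data. The number of arrays limits the precision.

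A gene above background on 0 arrays of a group has a bound in place of a fold. Same-numbered arrays deviated together by correlations of -0.20 to 0.13, so the numbers do not pair them. The members and all lists were chosen with earlier results of these data known. Every kept member could be named, and of other lists up to 4 called genes per comparison with the smallest adjusted p. Alternatives are given in the closing section. Probes with no symbol or several symbols were left out (10378 and 18), and promoter windows came from RefSeq.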

Additional observations from a re-analysis of the deposited data

Results flagged for a closer look

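Each of the 44 genes was looked at in both groups of 4 arrays, 88 sets of values, and in 6 of them 1 array stood apart from the other 3 beyond Dixon's 95% critical value, which chance alone passes in about 5% of sets. On Sohlh1 KO 2, Col24a1 was at 7.30, against 6.53 to 6.64 on the other Sohlh1 KO arrays. On Sohlh1 KO 1, Lamc3 was at 4.93, against 5.60 to 5.69, and its fall passed without that array too. On wild type 1, Lama2 was at 8.40, against 7.995 to 8.04 on the other wild-type arrays, and without that array its fall passed in Sohlh1 KO and not in Sohlh2 KO. On wild type 2, the faint Col28a1 was at 4.999, against 4.60 to 4.65. On wild type 3, Col4a1 was at 12.46, against 12.06 to 12.13, and Col6a2 at 11.08, against 10.52 to 10.55.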

How the results depend on the processing

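There were 24 alternatives to the processing and the samples, and 23 for Col2a1, Col28a1, Col5a3 and Col9a1, which a stricter background limit left out. The use of other probes aside, all 17 genes called in Sohlh1 KO and all 18 called in Sohlh2 KO kept their sign. Of these, 9 and 6 were called in every one: Col14a1, Col17a1, Col4a3, Col4a4, Col9a3 and Lamc3 in both knockouts, and Col27a1, Col6a2 and Lama2 in Sohlh1 KO. Of the 27 and 26 uncalled members, 13 and 15 changed sign in at least 1 alternative. The 12 rises in Sohlh1 KO became 5 without wild type 2 and 3 and 2 at a minimum of 2-fold, and the 5 falls became 3 at that minimum. The 13 rises in Sohlh2 KO became 6 with chip as a block, 6 without wild type 2 and 3, and 1 at 2-fold, and the 5 falls became 3 in each of these. With each array left out, the rises were 9 to 13 and the falls 5 to 6 in Sohlh1 KO, and 10 to 15 and 4 to 5 in Sohlh2 KO. Other probes turned the sign of Col4a5 (0.43 in Sohlh1 KO, 0.61 in Sohlh2 KO) and, in Sohlh2 KO, of Col26a1 (-0.017) and Col27a1 (-0.081), and, among members that did not pass by either probe, that of Col3a1 in both knockouts (0.16 and 0.095) and in Sohlh1 KO those of Col8a1 (-0.011) and of both other Col25a1 probes (-0.28 and -0.045); the cause was not tested. With replicate number as a block, which does not pair these arrays, 15 of the 17 and 17 of the 18 calls were kept and 10 and 13 genes rose. Over all genes, the 2174 rises and 2193 falls in Sohlh1 KO became 1083 and 1457 without wild type 2 and 3, and 493 and 912 at 2-fold. In Sohlh2 KO the 1671 rises became 676 with chip as a block, 768 without wild type 2 and 3, 1084 without Sohlh2 KO 2, 392 at 2-fold and 2832 with array weights, and the 1732 falls became 1036 with chip as a block, 1100 without wild type 2 and 3 and 821 at 2-fold. Between the knockouts the 5 calls varied from 1 to 69. Faint members (Col2a1, Col11a2, Col28a1, Col9a1, Col6a5, Col22a1, Col25a1) lie too near background for small differences to be seen, and values that were quantile normalized before deposit cannot show a shift shared by most genes.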
